A study of Homo sapiens with 6 samples.

Results

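The LHFPL genes encode small membrane proteins that cross the membrane 4 times. LHFPL6 was examined here together with its paralogues LHFPL2, LHFPL4 and LHFPL5, 4 of the 23002 genes in the deposited table, to ask whether the fall of LHFPL6 after TRAF2 knockdown was shared within its family. The 4 genes were taken by name. LHFPL6 itself was selected on its log2 fold change between the groups compared here, the lowest of all tested genes, so its own change is described below without a test, while LHFPL2, LHFPL4 and LHFPL5 were taken as relatives. RNA was sequenced in bulk from U251, an established human glioblastoma line, made into stable lines with lentivirus. In the sh-NC group (3 libraries) the virus carried a non-targeting control, and in the sh-TRAF2 group (3 libraries) it carried a short hairpin RNA against TRAF2, and the labels give no other treatment. The labels call the 3 libraries of a group biological replicates, and they do not say which TRAF2 hairpin was used or whether each line was grown from 1 clone.

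TRAF2 is an adaptor and ubiquitin ligase that couples TNF receptors to downstream kinases. The LHFPL proteins form a subfamily of tetraspan membrane proteins distantly related to the claudins and to the PMP22 and EMP proteins, and some of them act as companions of ion channels. LHFPL6, formerly called LHFP for lipoma HMGIC fusion partner, was first found joined to the chromatin gene HMGA2 in a lipoma, and little is known of what its protein does. In the deposited annotation it carried 1 gene ontology term, membrane. LHFPL2 carried 11 terms, among them fertilization and the development of primary sexual characteristics. LHFPL4 holds GABA type A receptors at inhibitory synapses with neuroligin 2, and LHFPL5 belongs to the channel complex that turns sound into current in hair cells of the inner ear.

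The sequences shown first are the targets of the hairpins against TRAF2 that the study lists and the places in the LHFPL transcripts that hold ATTCCAC, a run of 7 bases of the first target. That run was singled out because genes carrying it had lower fold changes in these same data, so it is no independent choice. Capitals mark bases 10 to 16 of the sh-TRAF2#1 target, counted from its 5′ end, and the same 7 letters where they recur. Each line has 21 bases and reads 5′ to 3′ along the transcript, aligned to the target on those 7 letters.
sh-TRAF2#1 target: cccttgcagATTCCACgccat
sh-TRAF2#2 target: ctggaccaagacaagattgaa
LHFPL6 first match: ggtgtttctATTCCACagagt
LHFPL6 second match: ttccatgttATTCCACaatat
LHFPL4 match: aacattcccATTCCACcgcac

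The LHFPL6 transcript LHFPL6-201 (GENCODE release 29, GRCh38) lies on the minus strand of chromosome 13 from 39342892 to 39603171, with 4 exons, 603 coding bases and a 3′UTR of 1044 bases. Both of its matches lay in the 3′UTR, in exon 4, at chr13:39343665-39343685 and chr13:39343153-39343173. Within these 21 bases, the 7 letters began 260 and 772 bases after the stop codon. Over the whole 21 bases, 9 letters of the first and 10 letters of the second were identical to the sh-TRAF2#1 target, so the likeness did not extend far beyond the 7 letters, and the LHFPL4 site was more alike, with 12 identical letters. In both matches the 7 letters were followed by an A, which the target does not have at that position. The LHFPL4 site lay at chr3:9499509-9499529 on the minus strand, in the 3′UTR of LHFPL4-201, and was followed by a C.

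Runs of this length were not peculiar to sh-TRAF2#1 or to LHFPL6. The longest run that LHFPL6 shared with either target in the sense direction was 8 bases, bases 2 to 9 of the sh-TRAF2#2 target, in its 3′UTR. LHFPL2 shared 7 bases with each target in that direction. Its 3′UTR held bases 1 to 10 of the reverse complement of the sh-TRAF2#1 target, which pair with the 3′ end of that target. Beyond LHFPL6-201 and LHFPL4-201, ATTCCAC itself was in no LHFPL coding transcript examined. LHFPL2-201 on the minus strand of chromosome 5 (78485217 to 78648825, 5 exons) has a 3′UTR of 3680 bases and held 0 matches, as did the second coding transcript of that gene. The coding transcripts of LHFPL1, LHFPL3 and LHFPL5 also held 0 matches. Among the 10846 tested genes with a coding transcript in GENCODE, searched on the transcript strand in the 3′UTR of the longest one, 10.4% held ATTCCAC and 4.3% held ATTCCACA, in which the shorter motif is contained. Among the 1430 genes with a 3′UTR between 0.8 and 1.25 times as long as that of LHFPL6 the shares were 4.4% and 1.5%. Among the 1403 genes with a 3′UTR in the same range around that of LHFPL2, 20.6% held ATTCCAC.

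**Figure D1:**
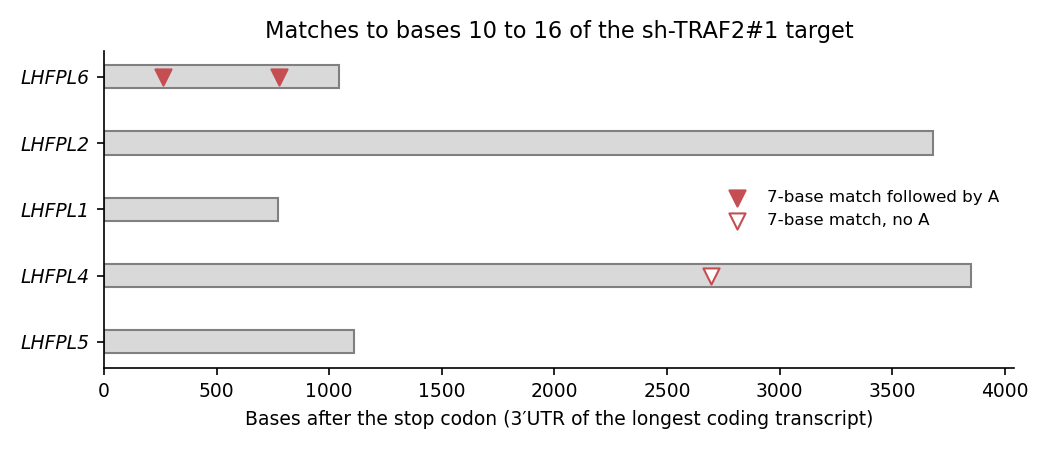
Bars show the 3′UTR of the longest coding transcript of each gene, drawn to scale in bases after the stop codon, and triangles mark the 7 letters shared with bases 10 to 16 of the sh-TRAF2#1 target, filled where an A follows. LHFPL6 carries 2 filled triangles in 1044 bases, LHFPL4 carries 1 open triangle in 3850 bases, and LHFPL2 carries none in 3680 bases.

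ATTCCACA was built from the LHFPL6 matches, since its last A is not in the hairpin target, so LHFPL6 belongs among its carriers by construction. The 3′UTRs of 28 of the 10846 genes (0.258%) held it 2 times or more, and that of LHFPL6 was the shortest of them. Of these 28 genes, LHFPL6 included, 13 (46.4%) were lower and 1 was higher after TRAF2 knockdown at an adjusted p under 0.05 in limma. Of the 439 genes with 1 occurrence, 181 (41.2%) were lower and 51 (11.6%) higher, and of the 10379 genes with none, 2200 (21.2%) were lower and 2539 (24.5%) higher. The median log2 fold changes were -0.18, -0.15 and 0.02 in that order. A fall of more than 1 on the log2 scale in addition was seen in 3 of the 28, 18 of the 439 and 59 of the 10379 genes. The 3 were LHFPL6, the solute carrier gene SLC46A3 (-1.25) and PIAS1 (-1.01), which encodes a SUMO ligase. These shares come from the same comparison in which LHFPL6 was picked and are descriptions, with 3′UTR length not held equal. ATTCCAC, which ATTCCACA contains, was itself singled out because its carriers had lower fold changes here. More falls among the carriers thus follow in part from that choice and are no independent result. The same shares for other runs of the hairpin targets are not given here. The part of the matches in the fall of LHFPL6 was not tested, and which hairpin was sequenced is not given in the sources used here.

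TRAF2, the target of the knockdown, stood at 15.1, 18.4 and 15.3 FPKM (a fragment count scaled to gene length and library size) in sh-NC replicates 1 to 3 and at 3.26, 3.22 and 3.33 FPKM in sh-TRAF2 replicates 1 to 3, so the libraries matched their labels. The reads recovered from the deposited values came to 33999558 in the shallowest library and 36823562 in the deepest. Of the 27 genes listed as cell type markers, 24 were in the table. The glioma markers vimentin, CD44, SOX2 and SOX9 were at 24.1 FPKM or more in every library, and S100B was at 0 in 5 of 6. Other markers of this list moved in different directions. The neural progenitor filament NES rose from 5.35 ± 0.528 to 11.7 ± 0.227 FPKM (SD, n = 3; adjusted p = 1.91e-05 from limma), and GFAP rose from 0.467 ± 0.176 to 1.18 ± 0.552 FPKM with overlapping groups (adjusted p = 0.0382 from limma). The growth factor receptor EGFR fell from 31.8 ± 0.763 to 14.3 ± 0.607 FPKM (SD, n = 3; adjusted p = 2.23e-06 from limma). The summed glioma and astroglial markers, mostly vimentin, were at 1490 to 1560 FPKM in sh-NC and at 1820 to 1870 FPKM in sh-TRAF2, and the 4 neuronal markers, each under 0.5 FPKM on average, summed to 0.236 to 0.463 and 0.53 to 0.865 FPKM. The oligodendrocyte, endothelial and epithelial sums stayed at or below 0.0983 FPKM. Among the microglial and leukocyte markers only CD68, a lysosomal protein, exceeded 0.5 FPKM, and its log2 fold change was -0.02 (adjusted p = 0.788 from limma). The part of these marker differences in the results was not tested.

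LHFPL6 was expressed at 34.7, 36.8 and 34.7 FPKM in sh-NC replicates 1 to 3. In sh-TRAF2 replicates 1 to 3 it was at 6.45, 6.33 and 6.32 FPKM. These values rest on 2637, 2806 and 2749 reads against 479, 463 and 473 reads. The libraries of the groups were far apart and did not overlap, and the 3 knockdown libraries lay closer together than the 3 controls. The mean went from 35.4 ± 1.2 to 6.37 ± 0.074 FPKM (SD, n = 3), 82.0% lower or 5.56-fold. On the log2(FPKM + 0.1) scale the change was -2.46 (standard error 0.0445, 95% interval -2.56 to -2.35). It was the lowest of 11870 tested genes by construction of the choice, and TRAF2 followed at -2.27. In bulk RNA, fewer cells with the transcript and less transcript per cell cannot be told apart.

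LHFPL2 fell as well, so the fall of LHFPL6 was not the only one in its family. Its level was 29.8, 31.0 and 31.0 FPKM in sh-NC replicates 1 to 3 and 16.6, 16.0 and 16.4 FPKM in sh-TRAF2 replicates 1 to 3. It was covered by 8284 to 8979 reads per sh-NC library and by 4287 to 4504 reads per sh-TRAF2 library. Each knockdown library lay below each control library, with a spread of under 1 FPKM inside the knockdown group. The mean went from 30.6 ± 0.665 to 16.3 ± 0.292 FPKM (SD, n = 3), 46.6% lower. The log2 fold change of LHFPL2 was -0.90 (SE 0.04, 95% interval -0.99 to -0.81, adjusted p = 3.02e-06 from limma). A two-sided exact permutation test of LHFPL2 alone gave p = 0.1, the smallest that 3 libraries against 3 can give.

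**Figure D2:**
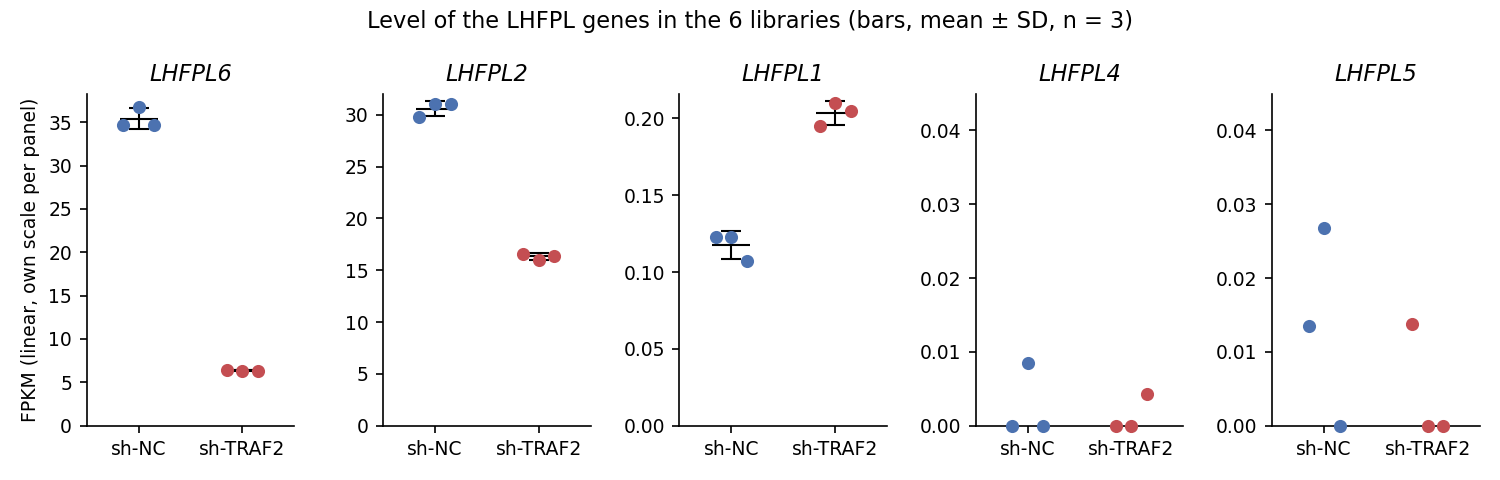
Points are the FPKM of each LHFPL gene in the 3 sh-NC (blue) and 3 sh-TRAF2 (red) libraries, each panel on its own linear axis from 0, and bars give the mean and SD where a gene had more than a few reads. LHFPL6 and LHFPL2 lie lower in all 3 sh-TRAF2 libraries, LHFPL1 lies higher at about 0.2 FPKM, and LHFPL4 and LHFPL5 stay below 0.03 FPKM.

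Of the 4 members, LHFPL6 and LHFPL2 passed the filter on low values, and LHFPL4 and LHFPL5 did not. LHFPL2 was lower at an adjusted p under 0.05, and so was LHFPL6, for which the choice fixed the call. Over all tested genes 20.9% were lower by that rule, 23.7% were higher and 26.5% had every knockdown library below every control library (55.5% without overlap in either direction). With a log2 fold change below -1 required in addition, LHFPL6 passed and LHFPL2 did not, against 0.733% of all tested genes (0.986% were higher past a log2 fold change of 1). By the size of its fall LHFPL2 ranked 125 of 11870, with 1.04% of the tested genes further down.

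In FPKM, LHFPL6 and LHFPL2 were at similar levels in control cells and at different levels after knockdown. The ratio of LHFPL6 to LHFPL2, both in FPKM, was 1.17, 1.19 and 1.12 in sh-NC replicates 1 to 3. It was 0.389, 0.395 and 0.386 in sh-TRAF2 replicates 1 to 3. The ratio thus went from 1.16 ± 0.0343 to 0.39 ± 0.00495 (SD, n = 3), and the groups did not overlap. On the log2 scale LHFPL6 changed by 1.56 more than LHFPL2, stated as a difference of -1.56. Since LHFPL6 was chosen for the size of its fall, this difference is given without a test. In FPKM the order of the pair therefore differed between the groups, with LHFPL6 above LHFPL2 in each control library and below it in each knockdown library. That order and the similar control levels rest on the gene lengths behind the FPKM, which are not given in the sources used here. In reads, LHFPL2 was above LHFPL6 in every library, with 8284 to 8979 against 2637 to 2806 reads in sh-NC. The change of the ratio between the groups does not rest on these lengths.

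LHFPL4 and LHFPL5 were at the limit of detection in both groups. LHFPL4 had 0, 2 and 0 reads in sh-NC replicates 1 to 3 and 0, 0 and 1 reads in sh-TRAF2 replicates 1 to 3. LHFPL5 had 1, 2 and 0 reads against 1, 0 and 0 reads. Neither exceeded 3 reads over a whole group, so no fold is given. A count of 0 allows up to 3 reads per library, which is 0.012 to 0.013 FPKM for LHFPL4 and 0.039 to 0.042 FPKM for LHFPL5, counting error only. A change in these genes was not detectable at this depth.

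LHFPL1, a further relative that is not among the 4, was in the table at a low level. It had 11, 11 and 10 reads in sh-NC replicates 1 to 3 and 17, 18 and 18 reads in sh-TRAF2 replicates 1 to 3. In FPKM it was at 0.118 ± 0.00902 against 0.203 ± 0.00739 (SD, n = 3), and its groups did not overlap. It fell below the filter on low values. With no filter its log2 fold change was 0.48 (adjusted p = 0.0564 from limma), and on recovered reads limma-voom gave 0.76 (adjusted p = 0.128), so the difference passed neither test. The level of LHFPL3 was not analysed here.

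Among the 5 LHFPL genes measured, LHFPL6 and LHFPL2 made up almost the whole summed level. The summed level of the 5 genes was 66.1 ± 1.64 FPKM in sh-NC and 22.9 ± 0.349 FPKM in sh-TRAF2 (SD, n = 3), 65.4% lower. LHFPL6 made up 52.8% to 54.2% of the sum in the control libraries and 27.6% to 28.1% in the knockdown libraries. LHFPL2 made up 45.6% to 47.1% and then 71.0% to 71.5%. LHFPL1 stayed under 1% of the sum in each library. The sum and these shares rest on the gene lengths behind the FPKM, which are not given in the sources used here.

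LHFPL6 and LHFPL2 were compared in sequence, since reads can be counted to the wrong gene through shared stretches, which was not tested. Their coding sequences were identical at 61.6% of 571 aligned bases, and the longest run shared by the 2 transcripts was 13 bases. The closest relative of LHFPL6 by coding sequence was LHFPL1, at 67.9% of 599 aligned bases with a longest shared run of 18 bases. LHFPL3 and LHFPL4 were closer to each other, at 78.6% with a shared run of 52 bases, so the few LHFPL4 reads are less certain. The longest run that LHFPL6 shared with any relative was 37 bases, with LHFPL5, which had at most 2 reads in a library. In RefSeq, LOC112268119 overlaps LHFPL6 and was measured at a mean of 0.309 FPKM, and the use of strand in the counting is not given in the sources used here.

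**Figure D3:**
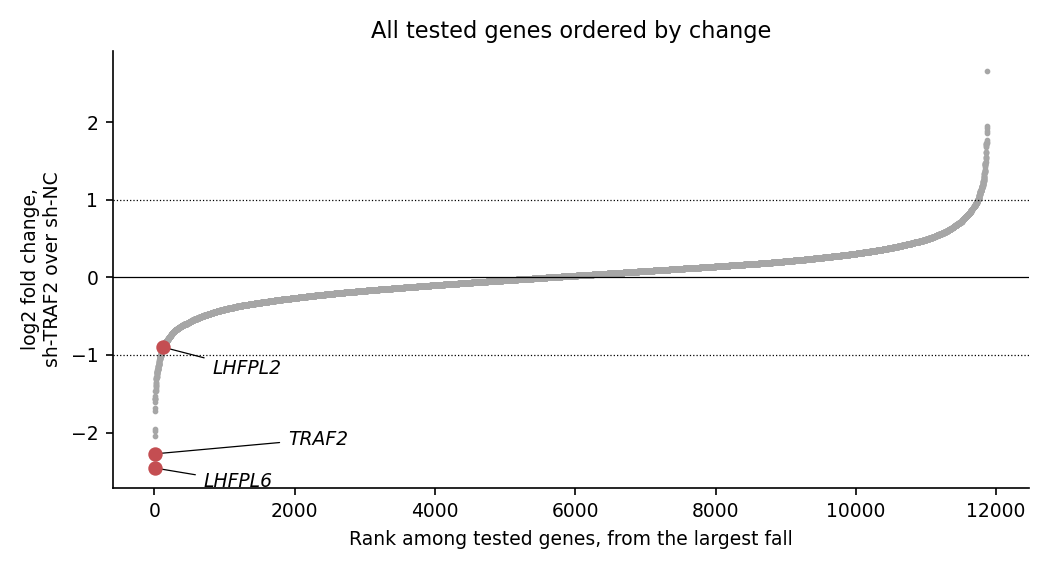
Each grey point is a tested gene, ordered from the largest fall on the horizontal axis, with its log2 fold change (sh-TRAF2 over sh-NC) on the vertical axis and dotted lines at -1 and 1. LHFPL6 sits at -2.46 below TRAF2 at -2.27, and LHFPL2 sits at -0.90 at rank 125 of 11870.

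Among the genes whose profile over the 6 libraries lay closest to that of LHFPL6, TRAF2 came first and other genes with large falls followed. Likeness was taken as the Euclidean distance between log2(FPKM + 0.1) values centred on each gene's own mean. It was 0.275 for TRAF2, 0.592 for PGD, an enzyme of the pentose phosphate pathway, 1.09 for MRPS6, a mitochondrial ribosomal protein whose gene overlaps SLC5A3, and 1.11 for SELENON, a selenoprotein of the endoplasmic reticulum. Pearson's r with LHFPL6 was 0.998, 0.999, 0.962 and 0.996 in that order. All of these values are set mainly by the gap between the 2 groups and are a description over 6 libraries.

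Genes next to LHFPL6 on chromosome 13 were read to see whether the region as a whole was lower. Of 21 neighbours listed, 14 were tested, and 5 were higher and 5 lower at an adjusted p under 0.05 while 4 were not called. This was 71.4% called, against 44.6% of all tested genes in either direction. The median log2 fold change of the 14 was -0.08, beside 0.02 over all tested genes, and the lowest value was -0.53. The other 7 neighbours had a mean level of 0.373 FPKM or less.

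The nearest tested neighbours differed in direction. COG6, a subunit of a Golgi tethering complex, lies 52.5 kb from LHFPL6 and was at 2.25, 2.43 and 2.78 FPKM in sh-NC replicates 1 to 3 and at 2.95, 3.15 and 2.89 FPKM in sh-TRAF2 replicates 1 to 3. Its log2 fold change was 0.27 (adjusted p = 0.0463 from limma), a call that was lost in 8 of 15 other fits, with an adjusted p of up to 0.146; among them were the fits without sh-NC replicate 1 or 2 and those that left out each of the sh-TRAF2 replicates in turn. On the other side NHLRC3, 293 kb away, fell from 8.38 ± 0.4 to 7.05 ± 0.277 FPKM (SD, n = 3), with a log2 fold change of -0.25 (adjusted p = 0.00934 from limma). PROSER1, 305 kb away, fell from 26.5 ± 0.109 to 18.3 ± 0.887 FPKM (SD, n = 3), with a log2 fold change of -0.53 (adjusted p = 7.27e-05 from limma). FOXO1, a forkhead transcription factor 867 kb away, had a log2 fold change of -0.25 (adjusted p = 0.144 from limma) with overlapping groups.

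Further out, the neighbour with the largest change rose. ALG5, a glucosyltransferase of the dolichol pathway 2.34 Mb from LHFPL6, was at 6.85, 6.48 and 6.37 FPKM in sh-NC replicates 1 to 3 and at 23.5, 21.7 and 21.4 FPKM in sh-TRAF2 replicates 1 to 3. The knockdown libraries were all above the controls, 3.38-fold in the means, with a log2 fold change of 1.74 (95% interval 1.61 to 1.87, adjusted p = 7.95e-07 from limma). EXOSC8, an exosome subunit whose gene overlaps ALG5 on the other strand in GENCODE, had a log2 fold change of -0.18. UFM1, a ubiquitin-like protein, rose by 0.33 on the log2 scale (adjusted p = 0.000707 from limma). ELF1, an ETS transcription factor, fell by 0.44 on the log2 scale (adjusted p = 0.000214 from limma).

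**Figure D4:**
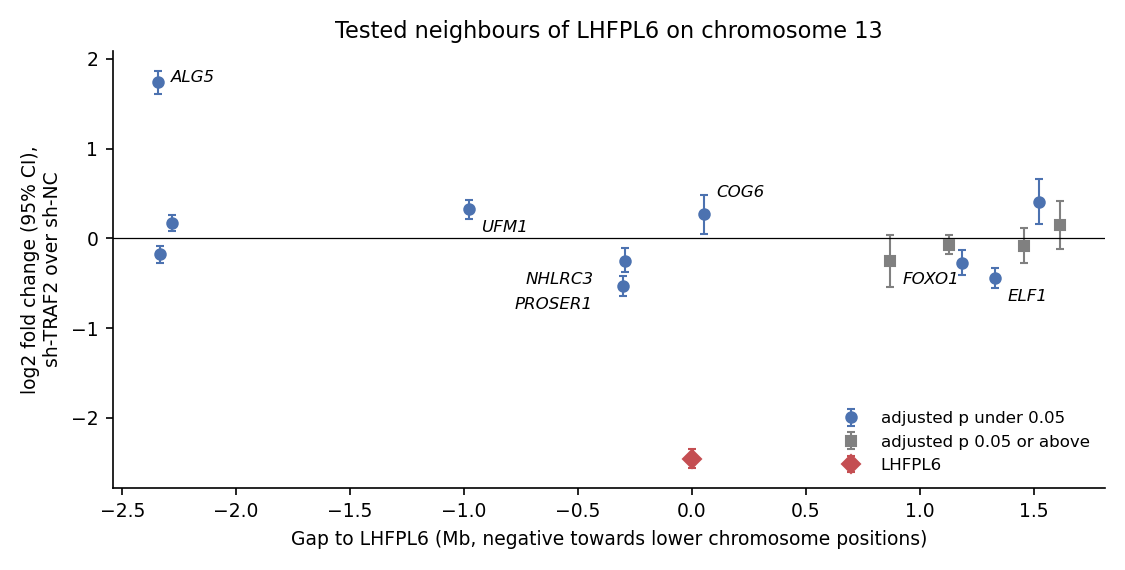
Tested neighbours of LHFPL6 are placed by their gap to LHFPL6-201 in Mb (horizontal) and their log2 fold change with its 95% interval (vertical), circles for adjusted p under 0.05 and squares for the others. LHFPL6 at -2.46 stands below all 14 neighbours, the lowest of which is PROSER1 at -0.53, and ALG5 at 1.74 is the highest.

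LHFPL2 was set beside its own nearest coding neighbours on chromosome 5, chosen after their values were seen. SCAMP1, a secretory carrier membrane protein, had a log2 fold change of -0.14 (adjusted p = 0.183 from limma) with overlapping groups. ARSB, a lysosomal sulfatase, had a log2 fold change of 0.12 (adjusted p = 0.143 from limma) without overlap. Neither passed the test that LHFPL2 passed, and the difference between LHFPL2 and these genes was not tested.

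The wider tetraspan relatives had smaller log2 fold changes than LHFPL2, in both directions, and their differences from LHFPL2 were not tested. Of 49 such genes listed, 29 were in the table and 9 were tested, of which 4 were higher and 4 lower at an adjusted p under 0.05. This was 88.9% of the 9, against 44.6% of all tested genes, with a median log2 fold change of -0.14 and a range of -0.63 to 0.54. None of the 9 reached a log2 fold change of 1 in either direction, against 1.72% of all tested genes. The other 20 genes in the table had mean levels of 0.439 FPKM or less.

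Among those that fell, EMP2, an epithelial membrane protein, was at 2.17, 1.75 and 2.41 FPKM in sh-NC replicates 1 to 3 and at 1.33, 1.37 and 1.27 FPKM in sh-TRAF2 replicates 1 to 3. Every knockdown library was lower, and on the log2 scale EMP2 changed by -0.63 (SE 0.126, adjusted p = 0.00456 from limma). TMEM47, a claudin-like protein of cell junctions, fell by 0.32 on the log2 scale (adjusted p = 0.0112 from limma). Among those that rose, CLDN12, a claudin, went from 23.3 ± 0.778 to 33.9 ± 0.637 FPKM (SD, n = 3), which is 0.54 on the log2 scale (adjusted p = 3.92e-05 from limma). CLDN1, a claudin of tight junctions, rose by 0.20 on the log2 scale (adjusted p = 0.00282 from limma). EMP1 and CLDND1 were also lower and EMP3 and PMP22 higher, each by less than 0.25 on the log2 scale. EMP1 and PMP22 each lost the call in 6 of 15 other fits, with an adjusted p of up to 0.091 and 0.104; among these were the fits without sh-NC replicate 1 or 2 for both, without sh-TRAF2 replicate 2 or 3 for EMP1, and without sh-TRAF2 replicate 1 for PMP22. EMP3 lost it with quantile normalization alone among the 15, at an adjusted p of 0.0875.

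**Figure D5:**
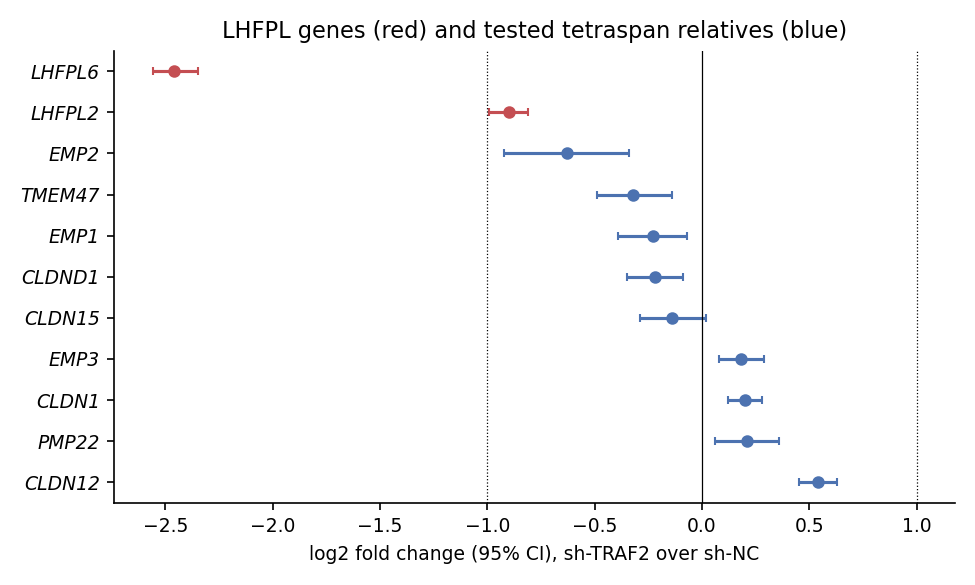
Points give the log2 fold change of sh-TRAF2 over sh-NC with its 95% interval for LHFPL6 and LHFPL2 (red) and for the 9 tested tetraspan relatives (blue), with dotted lines at -1 and 1. The interval of LHFPL6 lies below -2 and that of LHFPL2 between -0.99 and -0.81. The relatives lie on either side of 0, and among the 9 only the interval of CLDN15 (-0.29 to 0.02) includes 0.

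The genes that work with LHFPL4 and LHFPL5 were mostly as low as these members themselves. Of 24 listed partners, 19 were in the table and 4 were tested, all from the inhibitory synapse, and the other 15 had mean levels of 0.194 FPKM or less. None of the tested 4 was higher in limma and 1 was lower at an adjusted p under 0.05, which is 25% called against 44.6% of all tested genes, with a median log2 fold change of -0.15. The count was 0 without sh-TRAF2 replicate 3 and when each of the sh-NC replicates was left out in turn. NLGN2 (-0.23), the receptor subunit gene GABRA3 (-0.07) and GPHN (-0.03), the gene of gephyrin, did not pass the test. Partners of LHFPL5 in hair cells, such as TMC1 and PCDH15, were among those too low to be tested.

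HMGA2, the gene first found fused to LHFPL6, was lower too. It was at 28.4, 33.8 and 28.9 FPKM in sh-NC replicates 1 to 3 and at 22.5, 19.7 and 20.3 FPKM in sh-TRAF2 replicates 1 to 3, with no overlap between the groups. On the log2 scale HMGA2 changed by -0.54 (SE 0.0767, adjusted p = 0.0008 from limma), with an adjusted p of at most 0.00518 in the 15 other fits.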

How the data were processed

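Libraries were prepared with the VAHTS Universal V6 kit, sequenced and processed by OE Biotech. The authors deposited FPKM values, 1 per gene and sample. The submitters' processing notes name HISAT2, HTSeq, R 3.2.0 and DESeq2 without roles, and the genome build is not given in the sources used here. The deposited FPKM columns sum to between 349408 and 353563.

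From these values, log2(FPKM + 0.1) was compared between groups with limma 3.58.1 in R 4.3.3 (eBayes with a trend, two-sided) after leaving out genes whose mean was under 0.5 FPKM (11870 were tested), with Benjamini-Hochberg adjustment. The pseudocount shrinks the changes of low genes. The FPKM of each gene are whole multiples of a step, and the smallest whole reads (tolerance 0.0001) were recovered for 100% of genes. The 2643 genes with reads in 1 library only were given 1 read by this rule. Both steps were tested on simulated data. In the test of recovery, 98.3% of 1500 genes came out exactly. These genes were drawn from those with reads in every sample, which leaves out LHFPL4 and LHFPL5.

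The 4 members and all lists were chosen with earlier results of these data known. Named are TRAF2, the LHFPL genes, HMGA2, the genes at ranks 2 and 3 by fall, the 4 smallest adjusted p and the extremes of each list, the 4 nearest tested neighbours and the profiles nearest to LHFPL6; 2 genes so selected are not reported here. SLC46A3, PIAS1, SCAMP1, ARSB, NES, EGFR, GFAP, EXOSC8, EMP1, EMP3, CLDND1 and PMP22 were named after their values were seen. Sequences came from GENCODE 29 transcripts and the study's hairpin list, and coding sequences were aligned globally with Biopython 1.88. Other settings were pseudocounts of 1 and 0.01, all genes unfiltered, a stricter filter at 1 FPKM, TPM rescaling, quantile normalization, the replicate block, no trend, limma-voom on recovered reads with a mean of at least 10, a fold threshold on the lists, and each sample left out.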

Additional observations from a re-analysis of the deposited data

How the results depend on the processing

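Alternatives gave 154 values for 11 results. Of these, 141 kept the direction and call, or stayed within the spread or within 1.5 times for counts, and 13 moved. A reversal was looked for only in the changes of LHFPL6, which was chosen for its fall, and of LHFPL2, and 0 of these reversed. LHFPL6 lay between -2.48 and -2.30 over the other settings and between -2.47 and -2.43 with 1 sample left out. LHFPL2 lay between -0.93 and -0.87, and between -0.92 and -0.89. The difference between them was -1.44 with a pseudocount of 1, and -1.58 to -1.54 with 1 sample left out. With a pseudocount of 1, which shrinks fold changes, 46 genes were higher and 41 lower past the fold of 1, against 117 and 87; limma-voom, which tests more low genes, called 239 and 174. Past that fold, 1 neighbour, 0 tetraspan relatives and 0 partners were called. With no filter, 0 partners were called; the cause was not tested. With 1 sample left out, 95 to 163 genes were higher and 79 to 95 lower past the fold, 2206 to 2729 and 1956 to 2327 at the adjusted p alone, and 8 to 10 neighbours, 6 to 8 tetraspan relatives and 0 to 1 partners were called.

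The labels number the samples of both groups 1 to 3. Deviations of same-numbered samples correlated at -0.081, 0.072 and 0.073, so the numbers were not taken as pairs, and not every sample correlated best with its own number. With the replicate block LHFPL6 was at -2.46 and LHFPL2 at -0.90 (adjusted p = 6.54e-05 from limma), and 120 genes were higher and 88 lower past the fold. LHFPL4 and LHFPL5 had too few reads for a fold under any setting. Values resting on a few reads, as for LHFPL1, are limited by depth.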
